A study of Mus musculus with 15 samples.

Results

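The nuclear-encoded subunits of the respiratory chain and the ATP synthase were followed across mouse brain RNA-seq libraries. Entries of the expression table were taken by gene symbol: the Ndufa, Ndufb, Ndufc, Ndufs and Ndufv series with Ndufab1 for complex I, Sdha to Sdhd for complex II, Cyc1 and the Uqcr series for complex III, the ubiquitous Cox subunits for complex IV, and the Atp5 series for the ATP synthase (complex V). Only protein-coding entries were kept, which left out 7 entries with matching symbols and another biotype. There were 79 members among the 65964 entries of the table, 37 in complex I, 4 in complex II, 9 in complex III, 11 in complex IV and 18 in complex V. The 79 entries carry 78 symbols, because Atp5o has a second entry (ENSMUSG00000116933), which was listed at 0 in all 15 libraries. Ndufa4 is counted with complex I by its symbol, although its protein is now assigned to complex IV. Cox7a2l, an assembly factor for supercomplexes, and Atp5s, a coupling factor, were likewise kept by symbol.

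The study sequenced RNA from brains of C57BL/6 mice in which temporal lobe epilepsy is modelled with kainic acid (KA). Kainic acid is a glutamate receptor agonist used to provoke seizures in rodents. There were 5 groups of 3 libraries. APOE_H and APOE_L were treated with KA and APOE, KA_H and KA_L with KA, and CTRL_L was untreated. The labels name the disease model for all 5 groups, the untreated group included. They do not define the letters L and H, do not say what the APOE treatment was, and give no sex, age, dose or time. No untreated H group was among the libraries, so KA_H can be set only against KA_L or CTRL_L. The labels do not tie libraries to animals, and p-values therefore reflect the variation among these libraries alone, part of which may be technical.

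Complexes I to IV pass electrons from NADH and succinate to oxygen in the inner mitochondrial membrane and, except for complex II, pump protons as they do so. ATP synthase uses the resulting gradient to make ATP. Most subunits are encoded in the nucleus and imported, but some subunits of complexes I, III, IV and V are encoded by mitochondrial DNA. Each of these complexes therefore needs products of both genomes. Neurons and the ion-transporting epithelium of the choroid plexus are known for a high demand for oxidative phosphorylation.

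Nuclear genes of the respiratory chain are known to be controlled through short promoter elements bound by NRF1, ETS factors such as GABP, YY1 and the oestrogen-related receptors. Promoter windows of 250 bases before to 50 bases after the transcription start were available from RefSeq (GRCm38.p6) for 63 of the 79 members and for 17492 protein-coding genes. Both strands were searched for exact matches, and a gene counted once. The ETS core CCGGAAG was present in 16 of 63 member windows (25.4%), against 12.9% of all windows. The NRF1 element, read as GCGC, A, any base and GCGC in a row, was present in 17 member windows (27.0%), against 7.17% of all windows, and these include 5 (7.94%, against 1.47%) that have T as the free base, which makes the full NRF1 palindrome. The YY1 element AAGATGGC was present in 9 member windows (14.3%, against 3.57%) and the oestrogen-related receptor element AAGGTCA in 8 (12.7%, against 4.73%). The cyclic AMP response element TGACGTCA was found in 4 (6.35%, against 2.54%). The TATAAA box was the exception, with 5 member windows (7.94%), against 14.8% of all windows. Median GC content was 58.3% over the member windows and 56.3% over all windows. The part of base composition in the shares was not tested. The counts are of matching letters and carry no evidence of binding.

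For each complex, the 250 bases before the start of the member with the smallest p-value between H and L libraries are shown, because these are the promoters of the genes that separated the libraries most. Capitals mark matches to the ETS core and to the NRF1 element. The Ndufa1 sequence is from chrX:37191239-37191488, the Sdhd sequence from chr9:50603850-50604099, the Uqcr11 sequence from chr10:80406822-80407071, the Cox6a1 sequence from chr5:115348959-115349208 and the Atp5h sequence from chr11:115419920-115420169, all on the minus strand of GRCm38.p6 and written 5′ to 3′ towards the start.
Ndufa1: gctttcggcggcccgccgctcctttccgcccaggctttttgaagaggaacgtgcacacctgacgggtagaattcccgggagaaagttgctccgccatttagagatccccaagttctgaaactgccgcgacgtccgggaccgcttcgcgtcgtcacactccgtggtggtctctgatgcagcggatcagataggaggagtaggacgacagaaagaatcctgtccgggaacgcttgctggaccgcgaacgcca
Sdhd: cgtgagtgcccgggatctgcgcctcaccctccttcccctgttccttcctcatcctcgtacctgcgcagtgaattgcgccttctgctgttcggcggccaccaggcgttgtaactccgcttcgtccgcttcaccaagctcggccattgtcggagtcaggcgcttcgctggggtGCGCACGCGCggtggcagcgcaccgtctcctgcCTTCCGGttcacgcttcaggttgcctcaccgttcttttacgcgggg
Uqcr11: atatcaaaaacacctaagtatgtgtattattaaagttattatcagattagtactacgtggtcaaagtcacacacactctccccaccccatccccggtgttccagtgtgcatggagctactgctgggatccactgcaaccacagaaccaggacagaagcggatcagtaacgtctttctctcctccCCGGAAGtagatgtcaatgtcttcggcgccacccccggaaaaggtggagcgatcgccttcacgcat
Cox6a1: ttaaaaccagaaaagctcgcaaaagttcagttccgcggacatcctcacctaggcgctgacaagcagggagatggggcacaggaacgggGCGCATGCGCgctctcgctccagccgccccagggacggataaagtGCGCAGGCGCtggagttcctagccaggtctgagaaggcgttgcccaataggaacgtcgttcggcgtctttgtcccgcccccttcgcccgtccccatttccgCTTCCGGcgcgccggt
Atp5h: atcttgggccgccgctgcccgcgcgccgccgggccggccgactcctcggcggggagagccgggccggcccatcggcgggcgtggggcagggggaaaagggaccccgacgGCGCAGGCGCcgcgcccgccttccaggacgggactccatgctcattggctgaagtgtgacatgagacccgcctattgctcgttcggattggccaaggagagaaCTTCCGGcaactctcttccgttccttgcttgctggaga
Sdhd, Cox6a1 and Atp5h each held an ETS core and an NRF1 element, Uqcr11 held an ETS core, and Ndufa1 held neither of these in its 250 bases.

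The libraries differed in ways that touch every result below. Transcripts were quantified as TPM, an abundance per unit of transcript length scaled to a fixed library total, so values keep no sequencing depth, and levels can be compared between genes per unit length. Entries at 1 TPM or more numbered 12801 to 15452 in APOE_H, 10161 to 11237 in APOE_L, 13192 to 13635 in KA_H, 9931 to 12085 in KA_L and 10706 to 11182 in CTRL_L. Against the label of brain tissue, all 18 microglia markers were at 1 TPM or more in every library, whereas 7 of 15 astrocyte markers and 2 of 15 neuron markers passed the filter on low values. Markers of the choroid plexus, the epithelium that makes cerebrospinal fluid, divided the libraries. The summed TPM of 10 such markers was 38531, 58644 and 59134 in APOE_H and 33307, 36899 and 41425 in KA_H. It was 232, 126 and 297 in APOE_L and 57.6, 1281 and 166 in KA_L. In CTRL_L it was 140 in replicate 1 but 39316 and 23979 in replicates 2 and 3. Other measures also differed between the groups. Microglia markers summed to 37611 to 52053 TPM in APOE_H and 37686 to 44872 TPM in KA_H, against 29790 to 30109 TPM in APOE_L and 15785 to 27294 TPM in KA_L, and to 17307 to 56813 TPM in CTRL_L. The 9 neutrophil markers summed to 327 to 1302 TPM in KA_H and to 1184 TPM in APOE_H replicate 2, and to under 1 TPM in the other 11 libraries. The 5 red blood cell markers summed to 384 to 4092 TPM in KA_H, against 81.0 to 156 TPM in KA_L, but to 43.7 to 749 TPM in APOE_H, against 0.10 to 7386 TPM in APOE_L. Assembled loci took 2.20% to 3.17% of TPM in APOE_H, against 10.6% to 11.3% in APOE_L, and 4.51% to 6.78% in KA_H, against 11.4% to 12.1% in KA_L. The part of these measures in the results was not tested.

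The members together took 4.49 ± 1.15% of all TPM in APOE_H, 1.35 ± 0.0439% in APOE_L, 5.10 ± 1.06% in KA_H, 1.27 ± 0.241% in KA_L and 2.42 ± 0.955% in CTRL_L (SD, n = 3 each). Their summed level was 32381, 47136 and 55080 TPM in APOE_H and 43196, 46663 and 63071 TPM in KA_H. It was 12991, 13712 and 13785 TPM in APOE_L, 10223, 15026 and 12913 TPM in KA_L, and 13708, 26340 and 32434 TPM in CTRL_L. The 6 H libraries lay above the 6 L libraries of the KA and APOE groups with no overlap, and CTRL_L spanned the gap between them. CTRL_L replicate 1, the untreated library with few choroid plexus transcripts, was also the untreated library with the lowest member total. The 7 libraries with choroid plexus sums of 57.6 to 1281 TPM had member shares of 1.02% to 1.503%, and the 8 with sums of 23979 to 59134 TPM had shares of 2.63% to 6.31%. The part of the choroid plexus transcripts in the results was not tested. In bulk tissue, fewer cells of a type and less RNA per cell cannot be told apart.

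**Figure D1:**
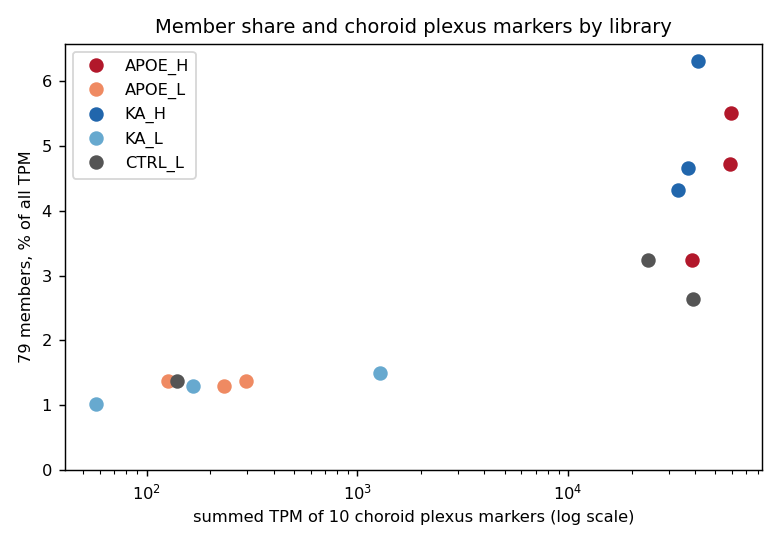
Member share of all TPM (vertical axis, percent) against the summed TPM of 10 choroid plexus markers (horizontal axis, log scale), 1 point per library, coloured by group. All 6 H libraries and CTRL_L replicates 2 and 3 lie at the right with shares of 2.63% or more, and the other 7 libraries lie at the left with shares of 1.503% or less.

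Each complex followed the same division except complex II, which couples succinate oxidation in the citric acid cycle to the chain. Complex I subunits summed to 16951 ± 4549 TPM in APOE_H, 4625 ± 432 TPM in APOE_L, 19006 ± 3621 TPM in KA_H, 4387 ± 1288 TPM in KA_L and 9102 ± 3145 TPM in CTRL_L (SD, n = 3 each). Complex III, which passes electrons on to cytochrome c, summed to 6181 ± 1622, 1871 ± 501, 7201 ± 1927, 1806 ± 380 and 3476 ± 1345 TPM in the same order of groups. Complex IV, the oxidase that reduces oxygen, summed to 9495 ± 2181 TPM in APOE_H, 3648 ± 173 TPM in APOE_L, 12639 ± 2404 TPM in KA_H, 3357 ± 558 TPM in KA_L and 5533 ± 2544 TPM in CTRL_L. For these 3 complexes every H library exceeded every KA_L and APOE_L library. ATP synthase subunits summed to 11058 ± 2958 TPM in APOE_H, 2779 ± 245 TPM in APOE_L, 11427 ± 2635 TPM in KA_H, 2643 ± 442 TPM in KA_L and 5435 ± 2530 TPM in CTRL_L, again with no overlap between the H and the KA_L and APOE_L libraries. Complex II summed to 1180 ± 277, 573 ± 408, 703 ± 227, 527 ± 135 and 613 ± 253 TPM in that order, with overlapping libraries between KA_H and KA_L. Its share of the member total was therefore 2.65% in APOE_H, against 4.27% in APOE_L. It was 1.39% in KA_H, against 4.31% in KA_L.

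**Figure D2:**
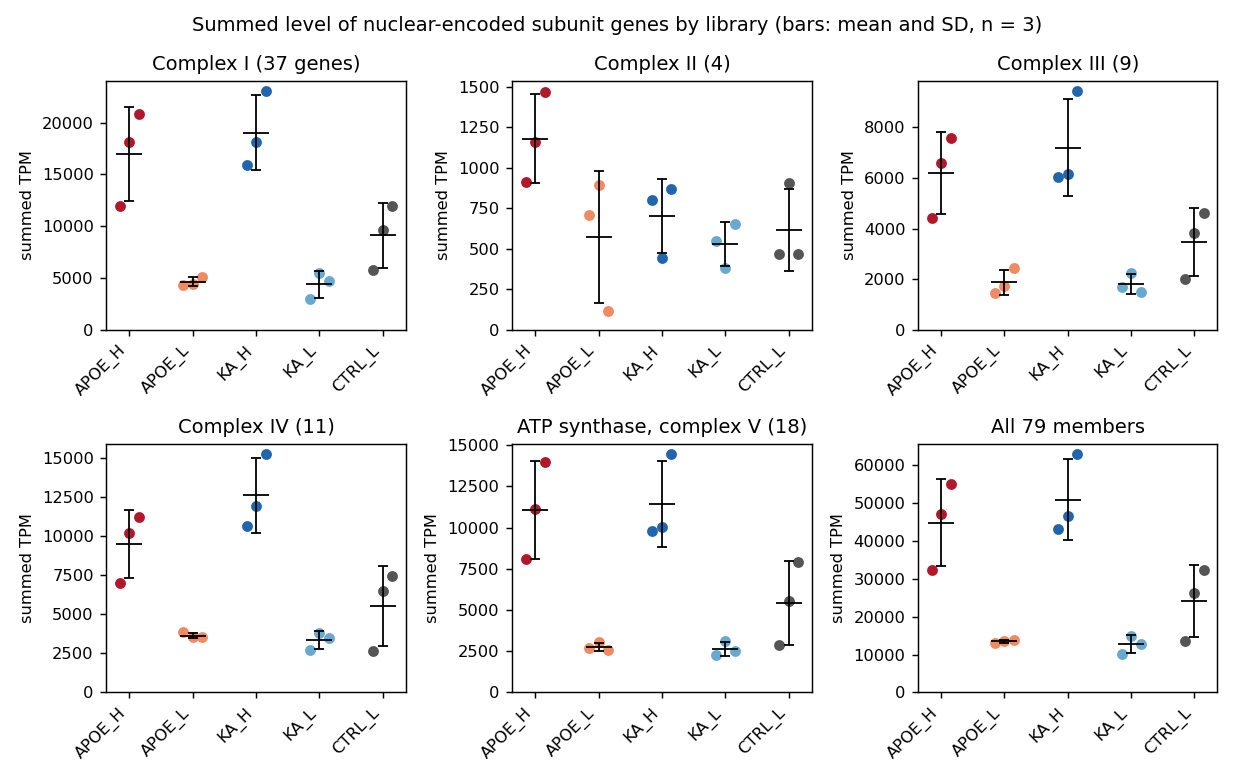
Summed TPM of the nuclear-encoded subunits of each complex (vertical axes) by group, with 1 point per library and bars for the mean and SD (n = 3). In complexes I, III, IV and V all APOE_H and KA_H points lie above all APOE_L and KA_L points, whereas in complex II KA_H and KA_L overlap.

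The most abundant member per unit length was Ndufa1, a small accessory subunit of the membrane arm of complex I, at a mean of 1878 TPM over the 15 libraries. Cox6c (1247 TPM), Cox8a (1128 TPM), both small subunits of complex IV, and Ndufa3 (1082 TPM) followed. The highest member was Atp5mpl (1070 TPM), a small proteolipid, in complex V, Uqcrb (1042 TPM) in complex III and Sdhc (313 TPM), a membrane anchor, in complex II. The highest group mean of a member lay in KA_H for 44 members, in APOE_H for 32 and in CTRL_L for 2. The lowest lay in KA_L for 37 and in APOE_L for 35. In every H library 78 members reached 10 TPM, whereas 65 to 73 did in APOE_L, 55 to 72 in KA_L and 73 to 77 in CTRL_L. Replicates differed more in the L groups: the median coefficient of variation of a member was 26.2% in APOE_H, 54.2% in APOE_L, 30.5% in KA_H, 65.8% in KA_L and 54.6% in CTRL_L. Values at or near 0 were part of this, since 13 members were under 1 TPM in at least 1 APOE_L library and 25 in at least 1 KA_L library. Besides the second Atp5o entry, 15 members were listed at 0 in at least 1 library. Ndufa10 and Atp5s were at 0 in 4 libraries each and Ndufb6 in 3. Ndufs7, an electron-carrying core subunit, and Uqcrc2, a core protein of complex III, were at 0 in 2 each. Ndufa6, Ndufa11, Ndufs6, Ndufv1, Sdhd, Cyc1, Uqcrfs1, Cox5a, Cox7a2l and Atp5o were at 0 in 1 each. None of these zeros was in an H library. A listed 0 may stand for an estimate that failed, and 49 of the 79 members stayed at 1 TPM or more in every library.

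KA_H was first set against KA_L. Each complex had members that rose in KA_H. Of the 78 members that passed the filter, 16 rose and none fell at an adjusted p under 0.05 (limma on log2(TPM + 1), Benjamini-Hochberg adjustment over 17505 entries), against 1.23% of all tested entries that rose. The 16 were 4 of complex I, Sdhd of complex II, 2 of complex III, 4 of complex IV and 5 of complex V. For 56 members the 3 KA_H libraries all lay above the 3 KA_L libraries, a separation seen in 10.5% of tested entries. The median log2 difference was 2.24 over the members, 0.11 over all tested entries and 0.35 over protein-coding ones. Short protein-coding transcripts were also higher in general. From transcripts under 600 nt through 600 to under 1000 nt and 1000 to under 1500 nt to those of 1500 nt or more, the median was 2.22, 2.66, 2.65 and 1.71 over the members, against 1.33, 1.62, 1.28 and 0.14 over protein-coding entries.

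Among complex I subunits, Ndufa1 had 2688, 3604 and 5029 TPM in KA_H, against 138, 314 and 471 TPM in KA_L. The lowest KA_H library was above the highest KA_L library, and the log2 difference was 3.73 ± 0.56 (SE; limma, adjusted p = 0.00533). Ndufa3, another accessory subunit, had 1454, 2663 and 2260 TPM in KA_H, against 415, 410 and 489 TPM in KA_L. Its KA_L libraries were close together, and it rose by 2.24 ± 0.34 (adjusted p = 0.00538). Ndufa4 had 1620, 2530 and 2265 TPM in KA_H, against 155, 435 and 176 TPM in KA_L, with a log2 difference of 3.20 ± 0.56 (adjusted p = 0.00974). Ndufb5, an accessory subunit of the membrane arm, had 283, 254 and 546 TPM in KA_H, against 7.56, 34.4 and 76.4 TPM in KA_L (log2 difference 3.57 ± 0.73, adjusted p = 0.0256).

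Sdhd anchors complex II in the membrane. It had 241, 155 and 281 TPM in KA_H, against 0, 0.64 and 0.05 TPM in KA_L, the widest gap of the 16, at a log2 difference of 7.52 ± 1.36 (limma, adjusted p = 0.0137). The other complex II subunits did not share it. Sdha, the flavoprotein that oxidises succinate, had 45.9, 29.2 and 49.97 TPM in KA_H, against 199.97, 39.6 and 18.2 TPM in KA_L, and Sdhb and Sdhc likewise overlapped. For complex III, Uqcr11 had 1639, 1136 and 2481 TPM in KA_H, against 261, 411 and 304 TPM in KA_L (2.38 ± 0.39, adjusted p = 0.00769). Uqcr10 had 1112, 1081 and 1794 TPM in KA_H, against 169, 260 and 265 TPM in KA_L (2.51 ± 0.53, adjusted p = 0.0279). Both are small subunits of the complex that lack a redox centre.

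In complex IV, the nuclear subunit Cox6a1 had 1497, 1503 and 2112 TPM in KA_H, against 258, 502 and 148 TPM in KA_L. No library overlapped, with a log2 difference of 2.65 ± 0.42 (limma, adjusted p = 0.0059). Cox8a had 1622, 1982 and 2592 TPM in KA_H, against 410, 364 and 393 TPM in KA_L (2.38 ± 0.50, adjusted p = 0.0278), and Cox6b1 and Cox6c rose as well. In complex V, Atp5g1, one of the 3 genes for the proton-carrying c ring, had 1094, 1163 and 1911 TPM in KA_H, against 58.7, 272 and 8.58 TPM in KA_L (4.64 ± 0.92, adjusted p = 0.0227). Atp5h and Atp5j of the peripheral stalk and Atp5l and Atp5mpl of the membrane part also rose. The summed choroid plexus markers were 33307 to 41425 TPM in KA_H and 57.6 to 1281 TPM in KA_L, and their part in these differences was not tested. The count of 16 rested on few libraries: it was 5, 6 and 2 without KA_H replicates 1, 2 and 3, and 9 and 7 without KA_L replicates 1 and 3. A fit on the 6 compared libraries alone called none, where the spread is estimated from fewer samples.

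In APOE_H against APOE_L, 19 members rose and none fell (limma, Benjamini-Hochberg), against 4.70% of tested entries that rose. Of these, 6 had also risen between KA_H and KA_L, which were Ndufa1, Uqcr10, Uqcr11, Cox6a1, Cox6c and Atp5h. They make up 31.6% of the 19 and 37.5% of the 16. The 19 were 6 of complex I, 5 of complex III, 4 of complex IV and 4 of complex V. For 64 members the APOE_H libraries all lay above the APOE_L libraries, a separation seen in 20.1% of tested entries. The median log2 difference was 2.13 over the members, 0.54 over all tested entries and 1.11 over protein-coding ones, of which 8447 of 11865 had positive differences. In the same 4 length classes, the median was 1.66, 2.04, 2.04 and 2.77 over the members, against 0.51, 1.29, 1.81 and 1.02 over protein-coding entries.

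Complex III had the largest share of members called, and the smallest p-value was that of an ATP synthase gene. Atp5h, subunit d of the peripheral stalk, had 621, 783 and 1021 TPM in APOE_H, against 50.2, 79.6 and 157 TPM in APOE_L. The lowest APOE_H library was above the highest APOE_L library, and the log2 difference was 3.19 ± 0.49 (limma, adjusted p = 0.00203). Atp5b, the catalytic beta subunit, had 1134, 1046 and 2006 TPM in APOE_H, against 152, 94.3 and 85.0 TPM in APOE_L (3.63 ± 0.66, adjusted p = 0.0061). Atp5e, the epsilon subunit of the central stalk, had 331, 832 and 707 TPM in APOE_H, against 70.2, 74.2 and 103 TPM in APOE_L (2.82 ± 0.53, adjusted p = 0.00629). Atp5a1, the alpha subunit that alternates with beta in the F1 head, rose by 3.15 ± 0.84 (adjusted p = 0.0352).

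Complex III supplied both a redox subunit and small subunits. Uqcrfs1, the Rieske iron-sulphur protein, had 125, 165 and 294 TPM in APOE_H, against 0.27, 0 and 12.8 TPM in APOE_L. It rose by 6.14 ± 1.33 (limma, adjusted p = 0.0133), and 1 of its APOE_L values was an exact 0. Uqcrq had 638, 736 and 858 TPM in APOE_H, against 112, 47.2 and 155 TPM in APOE_L (2.97 ± 0.61, adjusted p = 0.0102). Uqcr11 had 1084, 1911 and 2002 TPM in APOE_H, against 368, 462 and 437 TPM in APOE_L (1.93 ± 0.39, adjusted p = 0.00982). The core protein Uqcrc1 had 348, 250 and 494 TPM in APOE_H, against 2.20, 14.1 and 34.9 TPM in APOE_L, and rose by 4.87 ± 1.37 (adjusted p = 0.0444).

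For complex IV, Cox4i1, the subunit through which ATP is known to regulate the oxidase, had 1086, 1636 and 1843 TPM in APOE_H, against 326, 431 and 243 TPM in APOE_L (2.19 ± 0.41; limma, adjusted p = 0.00665). Cox6a1 had 865, 1237 and 1503 TPM in APOE_H, against 343, 269 and 248 TPM in APOE_L (2.04 ± 0.42, adjusted p = 0.0103). Cox5b, a zinc-binding subunit, had 637, 641 and 848 TPM in APOE_H, against 162, 107 and 183 TPM in APOE_L (2.25 ± 0.48, adjusted p = 0.0127). Both groups of 3 were thus well apart for each of these genes. In complex I, Ndufs5 had 415, 589 and 650 TPM in APOE_H, against 82.5, 56.5 and 88.8 TPM in APOE_L (2.85 ± 0.56, adjusted p = 0.00855). Core subunits that carry the electrons were among the 6: Ndufv2, Ndufs8 and Ndufs1, all iron-sulphur proteins, rose by 2.49 ± 0.60, 2.47 ± 0.66 and 4.64 ± 1.26. No complex II member passed, although all 4 had positive differences. Choroid plexus markers summed to 38531 to 59134 TPM in APOE_H and 126 to 297 TPM in APOE_L, and their part was not tested. The count of 19 became 11 without APOE_H replicate 2, 6 without APOE_H replicate 3 and 12 without APOE_L replicate 2.

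**Figure D3:**
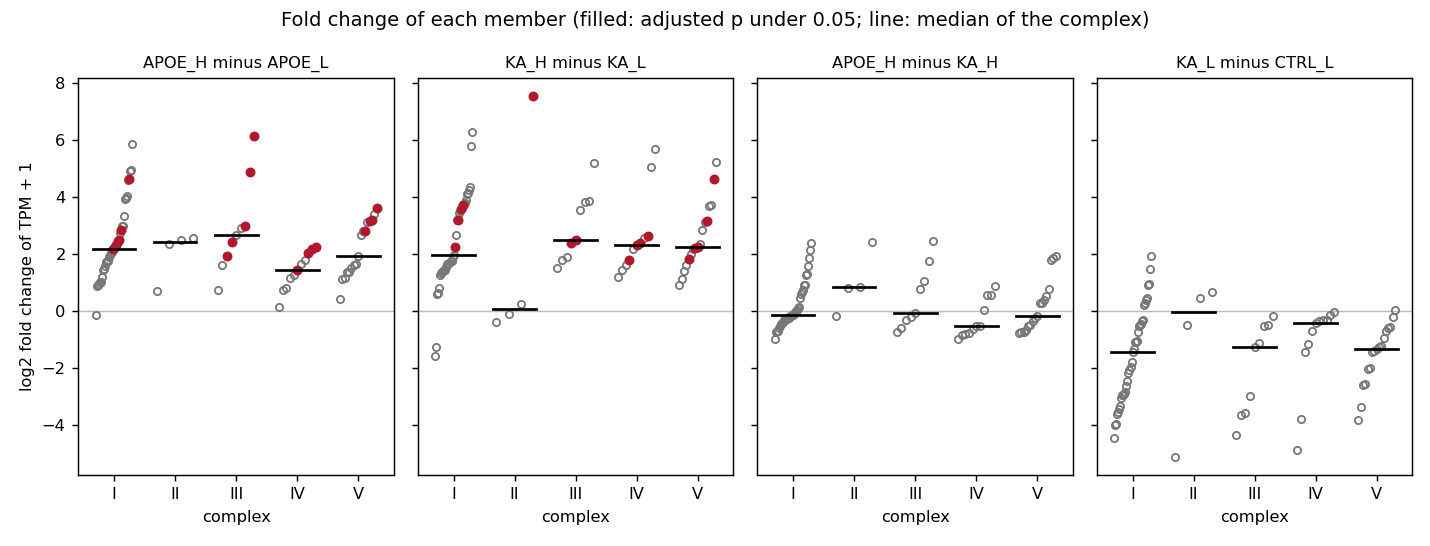
Log2 difference (limma on log2(TPM + 1)) of each tested member, grouped by complex, for APOE_H against APOE_L, KA_H against KA_L, APOE_H against KA_H and KA_L against CTRL_L. Filled points passed an adjusted p of 0.05. Nearly all members lie above 0 between H and L, whereas APOE_H and KA_H differ by values on both sides of 0 with no member passing. Most members lie below 0 in KA_L against CTRL_L, and none passed.

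Taking the 6 H libraries against the 6 KA_L and APOE_L libraries, 53 of the 78 members rose and none fell (limma, Benjamini-Hochberg), against 7.72% of tested entries that rose. All 78 differences were positive (77 after rescaling to protein-coding entries), up to 5.60 for Ndufb6, with a median of 2.22, against 0.32 over all tested entries and 0.74 over protein-coding ones, of which 10.5% rose. In the 4 length classes, from the shortest, the median was 2.02, 2.43, 2.23 and 2.45 over the members, against 0.80, 1.61, 1.58 and 0.59 over protein-coding entries. By complex, 23 of 37 rose in complex I, 1 of 4 in complex II, 7 of 9 in complex III, 8 of 11 in complex IV and 14 of 17 in complex V. For 41 members every H library lay above every KA_L and APOE_L library, against 3.42% of tested entries. The members with the smallest p-values were Atp5h (2.72 ± 0.34) and Cox6a1 (2.34 ± 0.30), both at an adjusted p of 0.000237, then Uqcr11 (2.16 ± 0.28, adjusted p = 0.000244) and Ndufa1 (3.02 ± 0.40, adjusted p = 0.000279). Small differences were seen for Ndufb4 (0.24), an accessory subunit, and Sdhc (0.30), with adjusted p-values of 0.82 and 0.766. This comparison reuses the libraries of the previous ones and is not a separate line of evidence.

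APOE_H was set against KA_H to compare KA and APOE with KA alone among the H libraries. No member passed (limma, Benjamini-Hochberg), against 0.531% of tested entries in either direction, and 5 were higher and 1 lower at an unadjusted p under 0.05, against 5.60% and 3.03% of tested entries. The median log2 difference was -0.14 over the members, 0.25 over all tested entries and 0.57 over protein-coding ones. Of the 78 members, 43 had negative differences, whereas 7930 of 11865 protein-coding entries had positive ones. The APOE_H libraries all lay above the KA_H libraries for 14 members (17.9%, against 14.6% of tested entries) and all below for 7 (8.97%, against 6.51%), shares near the background. Those above included the F1 subunits Atp5a1, Atp5b and Atp5d, the core subunits Ndufs1, Ndufs7 and Ndufv1, the flavoprotein Sdha, and Cyc1, Uqcrc1 and Uqcrc2 of complex III. They also included Ndufa8 and Ndufa9, accessory subunits of complex I, and Cox4i1 of complex IV. Those below were the small subunits Ndufb4, Uqcrb, Cox6b1, Cox7a2, Cox7c, Atp5k and Atp5mpl. Atp5b had 1134, 1046 and 2006 TPM in APOE_H, against 472, 214 and 492 TPM in KA_H (log2 difference 1.86 ± 0.66, adjusted p = 0.381). Sdha had 215, 215 and 240.0 TPM in APOE_H, against 45.9, 29.2 and 49.97 TPM in KA_H (2.43 ± 0.89, adjusted p = 0.41). The APOE_H values of Sdha were close together and well above those of KA_H, but the difference did not pass over all entries. Cox7a2 had 418, 587 and 589.8 TPM in APOE_H, against 742, 1191 and 1230 TPM in KA_H (log2 difference -0.97 ± 0.80, adjusted p = 0.817).

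The direction between APOE_H and KA_H went with the annotated length of the subunit's principal transcript. Across the 78 members, the log2 difference had a Spearman rho of 0.50 with transcript length (371 to 4715 nt, median 870 nt), whereas over 11810 protein-coding entries rho was -0.11. Points within a set share libraries and length normalisation, and no p is given. By length class, however, protein-coding entries showed a like pattern, so it is not particular to the members. Of 17 members with transcripts under 600 nt, 16 had a negative difference (median -0.30), and so did 145 of 201 protein-coding entries of that length (median -0.48). The 27 members of 600 to under 1000 nt had a median of -0.12, against 0.08 over protein-coding entries of that length. The 14 members of 1000 to under 1500 nt had a median of 0.46, against 0.72, and the 20 of 1500 nt or more a median of 0.97, against 0.63. Grouped by role, in classes formed after the values were seen, the median was 1.31 over 7 core subunits of complex I and -0.18 over 29 accessory ones. In complex III it was 1.41 over the core proteins, cytochrome c1 and the Rieske protein (4 of 4 positive) and -0.30 over the 5 small subunits (5 of 5 negative). In the ATP synthase it was 1.81 over 5 F1 subunits and -0.44 over 8 subunits of the peripheral stalk and membrane part. Core and F1 subunits have the longer transcripts, with class medians of 1623 and 1410 nt against 763 and 745.5 nt for accessory and stalk subunits, so role and length cannot be told apart here. No member of any class passed the test in this comparison.

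**Figure D4:**
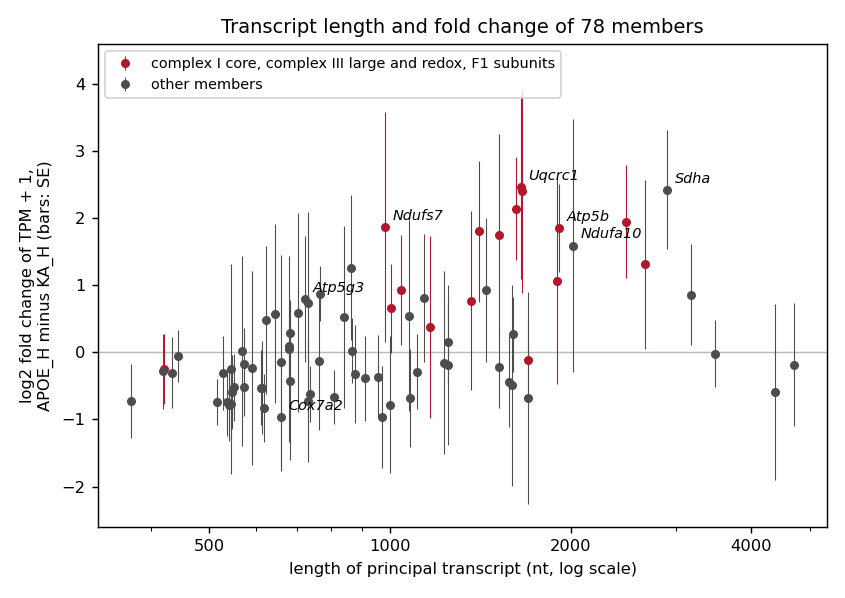
Log2 difference of each member between APOE_H and KA_H (vertical axis) against the length of its principal transcript in nt (horizontal axis, log scale), with SE bars. Red points are the core subunits of complex I, the core and redox subunits of complex III and the F1 subunits. Differences are mostly negative for transcripts under 600 nt (16 of 17) and have a median of 0.97 for transcripts of 1500 nt or more. Protein-coding entries, not plotted, had medians of -0.48 and 0.63 in these length classes.

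Among the L libraries, APOE_L was set against KA_L. No member passed (limma, Benjamini-Hochberg), against 0.0457% of tested entries, 7 were higher (8.97%, against 3.46%) and 3 lower (3.85%, against 4.39%) at an unadjusted p under 0.05, and the median log2 difference was 0.15. The libraries did not overlap for 9 members, 5 higher in APOE_L (6.41%, against 3.57% of tested entries) and 4 lower (5.13%, against 5.52%). The largest differences came from genes near 0 in KA_L. Sdhd had 80.7, 108 and 5.67 TPM in APOE_L, against 0, 0.64 and 0.05 TPM in KA_L (log2 difference 5.03 ± 1.36, adjusted p = 0.27). Cox7a2l had 139.9, 67.4 and 6.96 TPM in APOE_L, against 0.17, 0.75 and 0.23 TPM in KA_L (4.96 ± 1.43, adjusted p = 0.332). Without KA_L replicate 2, the KA_L library with the highest choroid plexus sum, 1 member passed. Whether the APOE difference itself depended on the letter was tested as an interaction. No member passed it (limma, Benjamini-Hochberg), against 8 of 17505 tested entries (0.0457%), and 4 members were positive (5.13%, against 5.45%) and 4 negative (5.13%, against 2.87%) at an unadjusted p under 0.05. The median interaction was -0.46 over the members, 0.38 over all tested entries and 0.69 over protein-coding ones.

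KA_L against CTRL_L asks what KA treatment did among the L libraries. Most members were lower in KA_L: 67 of 78 differences were negative, with a median of -1.24 over the members and 0.00 over all tested entries. In the 4 length classes, from the shortest, the median was -0.95, -1.33, -2.01 and -1.23 over the members, against -0.17, -0.29, -0.43 and -0.03 over protein-coding entries. No member passed (limma, Benjamini-Hochberg), against 0.571% of tested entries in either direction. At an unadjusted p under 0.05, 30 were lower (38.5%, against 6.24% of tested entries) and none higher. The KA_L libraries all lay below the CTRL_L libraries for 16 members (20.5%, against 4.54%). Ndufa1 had 138, 314 and 471 TPM in KA_L, against 530.4, 1279 and 2792 TPM in CTRL_L (log2 difference -2.17 ± 0.56, adjusted p = 0.117). Sdhd had 0, 0.64 and 0.05 TPM in KA_L, against 155, 176 and 1.5 TPM in CTRL_L (-5.10 ± 1.36, adjusted p = 0.13). The groups touch for neither gene, but CTRL_L ranged widely in both. Uqcr11 had 261, 411 and 304 TPM in KA_L, against 661, 563 and 1220 TPM in CTRL_L (-1.27 ± 0.39, adjusted p = 0.21). Complex III had all 9 differences negative and complex IV all 11, whereas complex II had 2 of 4. Without CTRL_L replicate 1, which has few choroid plexus transcripts, 6 members passed as lower, and 6 passed without KA_L replicate 2, 1 without CTRL_L replicate 3. The choroid plexus sums were 57.6 to 1281 TPM in KA_L and 140 to 39316 TPM in CTRL_L, and their part was not tested.

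KA_H against CTRL_L mixes the KA treatment with the letter, since no untreated H library was present, so treatment and letter cannot be told apart. The members lay mostly on the other side: 69 of 78 differences were positive, with a median of 1.09, against 0.10 over all tested entries. In the 4 length classes, from the shortest, the median was 1.38, 1.07, 1.06 and 0.45 over the members, against 1.11, 0.995, 0.68 and 0.01 over protein-coding entries. None passed (limma, Benjamini-Hochberg), against 0.377% of tested entries in either direction, and 22 were higher at an unadjusted p under 0.05 (28.2%, against 6.56%). KA_H lay above CTRL_L without overlap for 30 members (38.5%, against 7.74%) and below for 2 (2.56%, against 6.63%). Atp5j, coupling factor 6 of the peripheral stalk, had 1136, 1478 and 2206 TPM in KA_H, against 394, 456 and 681 TPM in CTRL_L (log2 difference 1.64 ± 0.40, adjusted p = 0.106). Cox6c had 1891, 2321 and 3150 TPM in KA_H, against 397, 1153 and 1012 TPM in CTRL_L (1.63 ± 0.41, adjusted p = 0.12). Ndufa9, an accessory subunit near the quinone site, was among those below, with 85.2, 56.9 and 40.7 TPM in KA_H, against 243, 104 and 260 TPM in CTRL_L (-1.67 ± 1.07, adjusted p = 0.642).

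The mitochondrially encoded partners of these subunits moved otherwise between APOE_H and APOE_L. Of 13 such genes, mt-Nd4l was listed at 0 in every library and 12 were tested. Between APOE_H and APOE_L, where 19 nuclear-encoded members rose, 7 mitochondrially encoded genes (58.3%) fell and none rose (limma, Benjamini-Hochberg). Of all tested entries, 1.45% fell. The median log2 difference of the mitochondrially encoded genes was -1.12. Their most abundant member, mt-Atp6, a subunit of the proton channel of ATP synthase, had 6907, 13522 and 10005 TPM in APOE_H, against 25535, 23726 and 33203 TPM in APOE_L. It fell by 1.48 on the log2 scale (SE 0.27, adjusted p = 0.00588). The complex I subunit mt-Nd3 had 124, 735 and 306 TPM in APOE_H, against 1754, 2195 and 1572 TPM in APOE_L, and fell by 2.58 (SE 0.51, adjusted p = 0.00855). Between KA_H and KA_L, 3 mitochondrially encoded genes rose and none fell, with a median of 0.98. Of these, mt-Co1, the catalytic subunit of complex IV, had 7241, 9329 and 8003 TPM in KA_H, against 2498, 1508 and 1247 TPM in KA_L (2.28 ± 0.27, adjusted p = 0.000937). The interaction of APOE with the letter passed for mt-Atp6 alone among the 12 (-2.30 ± 0.38, adjusted p = 0.0425), and for none of the nuclear members. It passed for 8, 6 and 0 of the 12 under upper-quartile, protein-coding and quantile scaling. Between APOE_H and KA_H, 2 of the 12 mitochondrially encoded genes fell and none rose (median -1.07), against 30 of 17505 tested entries that fell. Under these scalings, 6, 3 and 0 of the 12 fell. The 3 that rose between KA_H and KA_L became 9, 3 and 2.

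The ratio of summed nuclear-encoded to summed mitochondrially encoded TPM differed between groups. It was 1.21, 0.891 and 1.35 in APOE_H, against 0.169, 0.185 and 0.140 in APOE_L. KA_H had ratios of 0.511, 0.467 and 0.878, against 0.216, 0.299 and 0.380 in KA_L. The CTRL_L ratios were 0.294, 0.337 and 0.383. The 3 APOE_H libraries were the highest of all 15, although KA_H replicate 3 came close, and the 3 APOE_L libraries were the lowest. For complex I the ratio averaged 1.86 ± 0.375 in APOE_H, 0.241 ± 0.0169 in APOE_L, 1.00 ± 0.362 in KA_H, 0.377 ± 0.114 in KA_L and 0.553 ± 0.0715 in CTRL_L (SD, n = 3 each). The ATP synthase ratio averaged 0.801 ± 0.202 in APOE_H, 0.0778 ± 0.0188 in APOE_L, 0.382 ± 0.155 in KA_H, 0.155 ± 0.0363 in KA_L and 0.188 ± 0.036 in CTRL_L. With 3 libraries against 3, an exact permutation test cannot give a two-sided p below 0.1, so none is given. The mitochondrial sum did not divide the libraries by letter. It was 40174 ± 13040 TPM in APOE_H, 83147 ± 13609 TPM in APOE_L, 85431 ± 14037 TPM in KA_H, 43840 ± 8689 TPM in KA_L and 69825 ± 20367 TPM in CTRL_L.

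**Figure D5:**
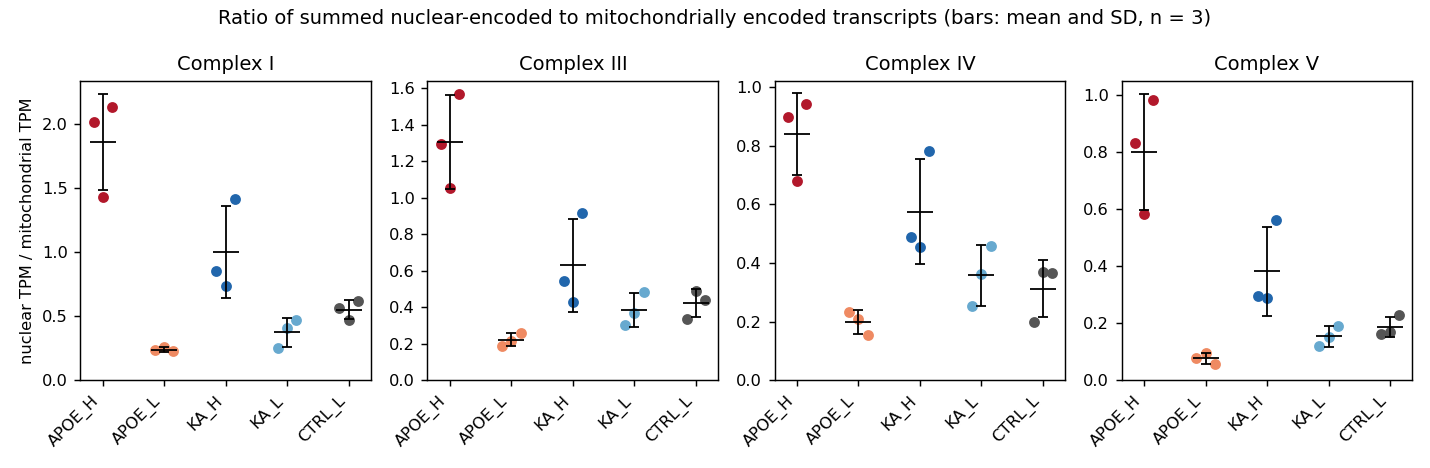
Ratio of summed nuclear-encoded to summed mitochondrially encoded TPM (vertical axes) for complexes I, III, IV and V by group, with 1 point per library and bars for the mean and SD (n = 3). APOE_H has the highest and APOE_L the lowest mean ratio in all 4 panels, with APOE_H means of 1.86 in complex I and 0.801 in complex V.

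Other mitochondrial genes were read from lists of genes with known roles. Of 14 isoforms and inhibitors of the complexes outside the symbol rule, 9 passed the filter on low values and 4 were listed at 0 in every library. Among the 9 tested, 6 (66.7%) rose between H and L libraries (limma, Benjamini-Hochberg) and none fell, against 7.72% of tested entries that rose. Cox8b, an isoform of complex IV known from heart and skeletal muscle, had 107, 387 and 421 TPM in APOE_H and 217, 398 and 686 TPM in KA_H, and was listed at 0 in all APOE_L and KA_L libraries. In CTRL_L it was listed at 0, 46.7 and 0 TPM. Cox6b2, known as a testis isoform, had 103, 106 and 95.7 TPM in APOE_H and 84.8, 75.9 and 115 TPM in KA_H, and was likewise listed at 0 in all APOE_L and KA_L libraries. Both isoforms were thus detected in every H library and in no KA_L or APOE_L library. In CTRL_L both were detected in replicate 2 only, where choroid plexus markers summed to 39316 TPM. Replicate 3 lacked both, although its choroid plexus sum was 23979 TPM. Both met the filter of 1 TPM in 3 libraries only through the H libraries, where they are high, so no p-value is given for them. The 6 that rose include both, so the share of 66.7% rests partly on that filter.

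Of 45 tested assembly factors of the complexes, 5 (11.1%) rose between H and L and none fell (limma, Benjamini-Hochberg), with a median of 1.34. This share was near the 10.5% of protein-coding entries that rose. Ndufaf8, an assembly factor of complex I, had 91.0, 78.7 and 145 TPM in APOE_H and 74.1, 44.9 and 159 TPM in KA_H, and was listed at 0, 0 and 0 TPM in APOE_L and 0, 12.5 and 0 TPM in KA_L (adjusted p = 0.000237). Of 19 enzymes of the citric acid cycle, which feeds the chain, 8 (42.1%) rose and none fell, with a median of 2.32. Mdh2, mitochondrial malate dehydrogenase, had 204, 187 and 313 TPM in APOE_H and 151, 56.8 and 64.5 TPM in KA_H, against 0.68, 4.73 and 24.5 TPM in APOE_L and 49.5, 8.38 and 4.89 TPM in KA_L (3.88 ± 0.72, adjusted p = 0.00332). Of 32 genes for protein import and carriers of the inner membrane, 8 (25%) rose and none fell, with a median of 2.05. The shares of this list and of the citric acid cycle were above the 10.5% of protein-coding entries. Between APOE_H and APOE_L, 6 of the 32 and 3 of the 19 citric acid cycle genes rose, against 6.56% of protein-coding entries. Between KA_H and KA_L, 1 of the 32 and 0 of the 19 did, against 1.60%. Slc25a3, the phosphate carrier that supplies ATP synthase, had 398, 495 and 620.3 TPM in APOE_H and 309, 226 and 286 TPM in KA_H, against 68.9, 93.2 and 16.4 TPM in APOE_L and 53.5, 133 and 27.1 TPM in KA_L (2.78 ± 0.49, adjusted p = 0.00221). Of 18 regulators of mitochondrial biogenesis, including Nrf1, Tfam and Ppargc1a, none passed (0 also at an unadjusted p under 0.05), with a median of 0.54. Of the 19 listed, 2 were at 1 TPM or more in every library, so the lack of calls does not show that they were unchanged. Among 78 cytosolic ribosomal proteins, 6 (7.69%) rose and none fell, with a median of 0.63. This share was near the 7.72% of all tested entries and below the 10.5% of protein-coding entries.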

How the data were processed

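RNA was measured in 15 mouse brain libraries, 3 in each of 5 groups. The deposited values were TPM, which the authors had already normalised for transcript length and library total, so no sequencing depth can be read from them and no counting interval is given. Per the submitters' processing notes, reads were aligned with STAR to GRCh38. GRCh38 is a human assembly, whereas the table holds mouse Ensembl identifiers, and neither the quantifier nor the annotation or strandedness is given in the sources used here. There were 55416 Ensembl entries and 10548 assembled loci in the table. Symbols, biotypes and transcript lengths came from GENCODE M21 (GRCm38), which matched 52135 entries. The length given for a gene was that of its highest-ranked principal protein-coding transcript, the longest where several ranked alike. It need not be the transcript that was expressed or used for TPM.

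Tested entries had to reach 1 TPM in 3 or more libraries (17505, among them 78 of the 79 members). limma 3.58.1 in R 4.3.3 was fitted to log2(TPM + 1) with 1 mean per group over all 15 libraries and a mean-dependent prior, and p-values were adjusted by Benjamini-Hochberg over all tested entries of a comparison. Folds on this scale understate the change of low genes. Several comparisons share libraries, KA_L and KA_H most often. The fit was tested on simulated data. The values of 1 member are not reported here by name, although it stays in the counts and sums. The members and lists were chosen with earlier results of these data known. Members were named where they were among the 10 with the smallest adjusted p of those passing with no overlap between groups, where they had the highest mean of their complex, or where they were listed at 0 in a library; any other member named was chosen after its values were seen. Replicate numbers did not pair libraries: same-numbered libraries had correlations of -0.026 to 0.037 between their deviations from the group means over 30 pairs. Alternatives were other scalings, filters and pseudocounts, no trend, only the compared libraries, a replicate block and leaving out each library.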

Additional observations from a re-analysis of the deposited data

Results flagged for a closer look

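Atp5mpl, a small proteolipid of the ATP synthase, differed in opposite directions by letter without overlap. It had 1144, 1716 and 1647 TPM in APOE_H, against 1719, 2173 and 2586 TPM in KA_H, and 593, 539.6 and 591 TPM in APOE_L, against 414, 408 and 78.2 TPM in KA_L. The APOE difference in the H libraries minus that in the L libraries was -1.80 ± 0.98 on the log2 scale, which did not pass over all entries (limma interaction, adjusted p = 0.659).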

How the results depend on the processing

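The count of members called between H and L libraries was 53 and ranged from 36 to 60 over the other settings and from 38 to 55 when 1 library was left out, and all 10 named members kept their call in each. Between KA_H and KA_L the count of 16 became 4 without the filter on low values, 2 without the variance trend and 0 with only the compared libraries, and ranged from 2 to 19 when 1 library was left out. Between APOE_H and APOE_L the count of 19 became 9 without the filter, 6 without the trend and 11 after rescaling to protein-coding entries, and ranged from 6 to 18 when 1 library was left out. Against CTRL_L, KA_H had 6 members called higher after upper-quartile scaling. Leaving out 1 library gave 0 to 6 calls for KA_L against CTRL_L, 0 to 1 for APOE_L against KA_L, and 0 to 1 for the interaction. With a replicate block, which the numbers do not justify, 1 member was called in KA_L against CTRL_L and 57 between H and L. No setting called a member between APOE_H and KA_H. The cause of these shifts was not tested.

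Of 840 recomputed medians, 836 shifted by less than the median SE of the members concerned, and 4 moved further. Whether a median changed sign was not checked. Of the 30 named calls, 61 of 540 recomputed tests missed the threshold and 0 reversed. The median over all tested entries between H and L was 0.32, and was 0.38, 0.22 and -0.14 under upper-quartile, protein-coding and quantile scaling, while that of the members was 2.31, 2.003 and 2.21. The mitochondrially encoded genes called lower in APOE_H against APOE_L numbered 8, 8 and 6 under these scalings, and those in the interaction 8, 6 and 0. Depth is unknown from TPM, so exact zeros in L libraries cannot be set against a counting floor, and 3 libraries a group limit every test.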
